A study of Mus musculus with 111 samples.

Results

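Immediate early genes are switched on within minutes of neuronal firing, before any new protein is made. The 9 described here, Fos, Fosb, Junb, Egr1, Egr3, Arc, Npas4, Nr4a1 and Dusp1, were chosen by name as the usual RNA readouts of neuronal activity, from 54087 gene names counted per library. They were followed in 110 RNA-seq libraries of the mouse tuberomammillary nucleus (TMN), the posterior hypothalamic site of the histamine neurons that fire during waking. Male and female C57BL/6J mice aged 8 to 10 weeks were infused on both sides with 1 of 3 adeno-associated viruses, and tissue lit by GFP was microdissected 21 days later. Every virus carried an IRES-driven GFP. The GFP group (32 libraries) received only that, the H3.3 group (39 libraries) also wild-type histone H3.3, and the Q5A group (39 libraries) tagged H3.3 with glutamine 5 changed to alanine, to which no monoamine can be attached. Uninfected cells in the dissected tissue keep their own histones and are part of each library. Tissue was taken every 4 h, at ZT0, 4, 8, 12, 16 and 20, with zeitgeber time (ZT) counted from the start of 12 h of light. GFP and H3.3 libraries together served as the 71 controls, with 9 to 14 libraries per ZT against 6 or 7 for Q5A.

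Calcium entry and kinase cascades reach these genes through transcription factors that already sit on the promoter, among them CREB at the cyclic AMP response element (CRE) and SRF at the CArG box. Fos, Fosb and Junb encode subunits of the AP-1 transcription factor, Egr1 and Egr3 zinc-finger factors, Npas4 and Nr4a1 a basic helix-loop-helix factor and an orphan nuclear receptor. Arc encodes a synaptic protein whose mRNA travels into dendrites, and Dusp1 a phosphatase that switches MAP kinases off again.

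RefSeq (build GRCm38.p6) gave a promoter, 250 bases before to 50 bases after the transcription start, for 6 of the 9 genes. The core of the CRE, TGACG read on either strand, was present in the promoters of all 6 (Fos, Fosb, Junb, Npas4, Nr4a1 and Dusp1), and in 20.8% of the 32851 mouse promoters of the same length. The palindrome TGACGTCA, which contains that core on both strands, was found in Dusp1 alone of the 6 and in 1.79% of all promoters, and the CArG box in none of the 6 and in 1.63% of all. Egr1, Egr3 and Arc had no promoter to search, and for no gene were bases beyond the 250 before and 50 after the start searched. The promoters of Fos, Npas4 and Dusp1 are shown because their cores lie apart, close together on opposite strands, and within the palindrome. Capitals mark the core on either strand.
Fos, chr12:85473640-85473939, plus strand: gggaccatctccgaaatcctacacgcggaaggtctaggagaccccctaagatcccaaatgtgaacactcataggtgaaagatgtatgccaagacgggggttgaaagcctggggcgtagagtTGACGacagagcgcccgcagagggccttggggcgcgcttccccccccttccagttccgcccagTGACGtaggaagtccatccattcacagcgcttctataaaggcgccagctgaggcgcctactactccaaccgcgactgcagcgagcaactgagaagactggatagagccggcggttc
Npas4, chr19:4989922-4990221, minus strand: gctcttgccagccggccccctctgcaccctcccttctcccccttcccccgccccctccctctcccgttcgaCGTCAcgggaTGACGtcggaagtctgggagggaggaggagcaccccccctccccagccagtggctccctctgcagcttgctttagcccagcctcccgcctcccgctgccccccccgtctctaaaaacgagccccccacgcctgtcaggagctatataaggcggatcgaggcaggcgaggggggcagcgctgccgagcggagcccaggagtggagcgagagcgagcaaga
Dusp1, chr17:26508423-26508722, minus strand: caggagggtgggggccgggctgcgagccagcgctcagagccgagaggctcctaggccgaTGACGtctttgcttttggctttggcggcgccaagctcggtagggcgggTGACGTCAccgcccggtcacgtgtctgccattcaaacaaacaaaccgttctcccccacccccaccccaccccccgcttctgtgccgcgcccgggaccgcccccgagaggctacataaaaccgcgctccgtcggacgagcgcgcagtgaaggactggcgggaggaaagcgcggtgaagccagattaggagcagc
Counted from the start site, the cores began at -129 and -66 in Fos, at -179 and -169 in Npas4, and at -191, -143 and -140 in Dusp1, where the last of these overlaps the one before it within the palindrome. A match of letters is a description of the sequence and was not tested for binding.

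Most of the rows were thinly covered. Libraries held 673306 to 3375352 reads in gene rows (median 1474422), which is 3.49% to 5.63% of their uniquely placed reads. Per library, Dusp1 had a median of 20 reads (range 5 to 57), Arc 9 (1 to 31), Egr1 7 (0 to 44), Fos 4 (0 to 28) and Nr4a1 3 (0 to 16). Fosb, Egr3 and Npas4 each had a median of 1 read, with 0 reads in 26, 38 and 46 of the 110 libraries. A library with 0 reads allows up to 3 reads of counting error, which is a normalised count of 2.88 at the median depth, so differences among values of that size were not detectable. Apart from Junb, the rows summed to 18 to 150 reads per library. That small share bears on what every count here means. The kit, named in the study's methods as Illumina Stranded mRNA Prep, Ligation, marks strand. Reads were counted with htseq-count's stranded setting at yes, which takes the first read as lying on the strand of the gene. Where a kit's first read lies on the opposite strand, this setting leaves in a row mainly reads from the other strand of the locus. Which of these holds could not be settled from the counts. Each value is therefore that of the row under a gene's name and cannot be read as the level of its mRNA. What share of it came from the gene's own transcript was not tested.

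Junb stood far above the other rows, with a median of 408.5 reads (174 to 1036) and 89.0% of all reads of the 9 genes. On the other strand, 173 bases of Prdx2, an abundant peroxide-removing enzyme, overlap the exons of Junb (chr8:84974484-84974656 in GRCm38). The Prdx2 row held a median of 28 reads, and Junb exceeded it in 110 of 110 libraries. If the kit's first read lies on the opposite strand, a Prdx2 read within the overlap counts in the Junb row, and a Junb read does not. The Junb row can therefore not be read as Junb mRNA. What part of it came from Prdx2 was not tested. Dusp1 shares 11 exonic bases with Ergic1 on the other strand (chr17:26561489-26561499), which is 0.3% of its exons, and the remaining 7 genes overlap no exon of another annotated gene.

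Divided by exonic length, the order of mean normalised counts per kb was Junb (175.8 ± 36.8, SD, n = 110), Dusp1 (6.05 ± 2.85), Arc (2.97 ± 1.84), Egr1 (2.02 ± 1.91), Fos (1.52 ± 1.14), Nr4a1 (0.885 ± 0.811), Egr3 (0.433 ± 1.101), Fosb (0.260 ± 0.229) and Npas4 (0.253 ± 0.354). Junb lay above Dusp1 in all 110 libraries and Dusp1 above Arc in 99. Further down, neighbours differed by less than their SD: Arc lay above Egr1 in 81 libraries, Egr1 above Fos in 69, Fos above Nr4a1 in 70, Egr3 above Fosb in 50 and Fosb above Npas4 in 55.

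Of the 110 libraries, 3 stood apart in marker rows, and they were singled out after the data had been seen. In Q5A ZT20 replicate 3, H3.3 ZT12 replicate 1 and GFP ZT12 replicate 3, all of cohort 1, the summed normalised count of 8 striatal neuron markers was 1667, 1057 and 928, against a median of 112 and at most 243.5 elsewhere. Ppp1r1b (DARPP-32), the defining marker of striatal projection neurons, read 621.3, 383.1 and 310.6 there and no more than 60.3 in any other library. They were not high in striatal markers alone. The summed cortical or hippocampal neuron markers were 671.2 and 349.1 in the Q5A and the H3.3 library, the highest 2 of the 110, and 96.1 in the GFP library, against a median of 69.8 and at most 325.9 in the other 107, and most of that sum was Nrgn (631.5, 330.8 and 86.3), a synaptic calmodulin-binding protein. The summed microglial markers were 439.4, 441 and 404.2 (median of the others 289.5). Over all libraries most of that sum was the single row of Csf1r, with a mean of 261.9, and the next highest was C1qa at 17.55. The summed histaminergic markers were also above their median elsewhere of 116.9, at 217.8, 264.3 and 193.5, ranks 4, 2 and 7, most of it from Slc18a2, the vesicular monoamine transporter. Hdc, the histamine-making enzyme that defines TMN neurons, was above 0 in 99 of 110 libraries with a median of 3.96, and read 0, 2.83 and 1.23 in the 3, ranks 100, 67 and 86. Where leaving these 3 libraries out moved a log2 difference printed here by over 1.5 times or turned its sign, the difference is given without them beside the result or among the alternatives at the end.

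**Figure D1:**
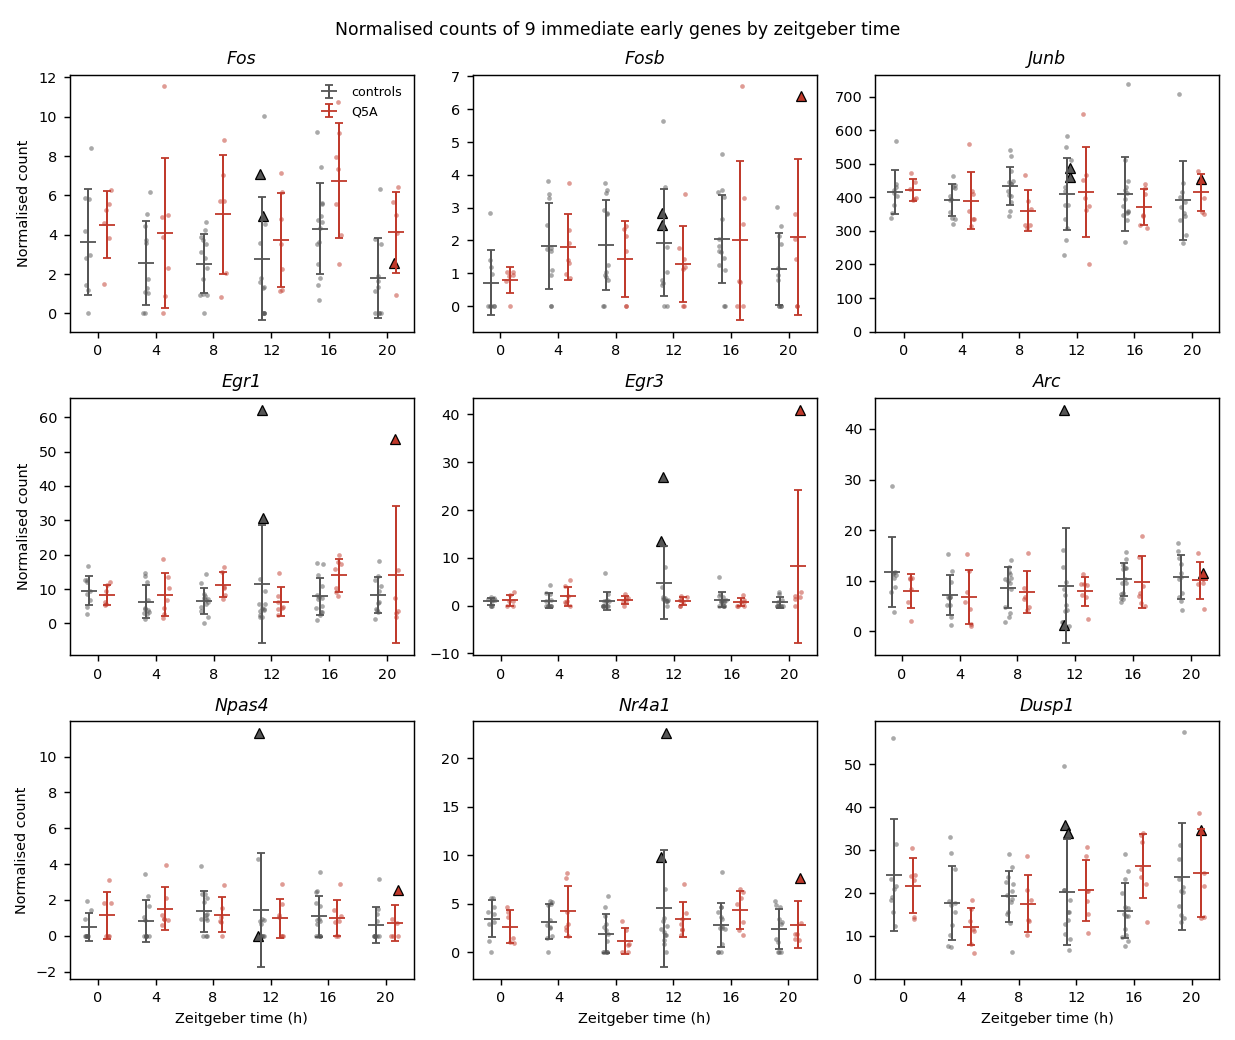
Normalised counts (y axis, a scale per gene) of the 9 genes against zeitgeber time in h (x axis), 1 point per library, controls (GFP and H3.3) in grey and Q5A in red. Horizontal marks and bars are the mean and SD, and triangles are the 3 libraries high in striatal markers, which are the 3 highest for Egr1 and Egr3.

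The first question was whether the genes were higher in the dark hours in which mice are awake (ZT16 and ZT20) than in the light hours in which they mostly sleep (ZT4 and ZT8). In controls, 1870 of 13254 genes tested differed between these hours (14.1%, edgeR quasi-likelihood test, adjusted p under 0.05). None of the 5 members that passed the filter on low counts (Fos, Junb, Egr1, Arc and Dusp1) did, also none by DESeq2, and none had an unadjusted p under 0.05 with either tool. Their median log2 difference was 0.21, beside 0.05 over all genes tested. Fosb, Egr3, Npas4 and Nr4a1 were tested without the filter, where 3.31% of genes passed, and none of the 4 did. In Q5A, 28 genes passed (0.211%), none of them a member with or without the filter (0.0777% of genes without it), and Dusp1 alone had an unadjusted p under 0.05, also by DESeq2. Where cells of a type are fewer and where each holds less RNA cannot be told apart in bulk tissue.

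Fos varied from 0 to 9.21 normalised counts in the dark-hour controls (median 3.54, n = 25) and from 0 to 6.15 in the light-hour controls (median 2.56, n = 24). The ranges overlapped almost wholly, and the log2 difference was 0.21 ± 0.36 (SE; 95% interval -0.50 to 0.91; adjusted p = 0.694). With GFP alone as controls the difference was negative, as given among the alternatives at the end. At ZT20, 4 of the 5 GFP libraries had 0 reads of Fos. In Q5A the Fos values ran from 0.945 to 10.7 in the dark hours (median 5.58, n = 13) and from 0 to 11.5 in the light hours (median 4.88, n = 13). The highest of all 26 lay in the light, at ZT4. That difference was 0.18 ± 0.41 (adjusted p = 0.919). Its 95% interval was -0.61 to 0.98.

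Fosb, whose truncated product builds up with repeated activity, had too few reads to place it. Its highest control values were 4.64 in the dark and 3.82 in the light, and the log2 difference was -0.25 ± 0.42 (adjusted p = 0.944). For Junb the interval was the narrowest of the 9, with values of 263.0 to 739.1 in the dark-hour controls (median 372.8) and 320.3 to 541.1 in the light-hour controls (median 413.2). The log2 difference of -0.04 ± 0.09 (adjusted p = 0.740) had an interval of -0.22 to 0.13, and in Q5A it was 0.05 ± 0.12 (adjusted p = 0.926). The limit on the Junb row given above applies to both.

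Egr1 ran from 0.886 to 18.2 in the dark-hour controls (median 7.18) and from 0 to 14.7 in the light-hour controls (median 6.02), a log2 difference of 0.28 ± 0.31 (adjusted p = 0.527). Within cohort 1, the largest of 3 cohorts, that difference was 0.81 ± 0.35 (adjusted p = 0.0876). In Q5A the dark hours ranged from 1.89 to 53.8 (median 10.3) and the light hours from 1.72 to 18.8 (median 10.4), so that the medians were level while the means were 14.1 and 9.72. A single library made that gap: the value of 53.8 belongs to Q5A ZT20 replicate 3 of cohort 1, and the log2 difference went from 0.45 ± 0.38 with the 3 striatal-marker libraries to -0.10 ± 0.34 without them.

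Egr3, another zinc-finger factor of the Egr family, showed the same 3 libraries more sharply. It held 32, 19 and 11 reads in them (41.0, 26.9 and 13.6 normalised counts), and at most 7 reads in the other 107, whose highest normalised count was 8.05 and whose median was 0.929. An overall test for a ZT effect in controls called Egr3 (adjusted p = 0.0306 without the filter, where 3.73% of genes passed), with the highest mean at ZT12, 4.82 ± 7.62 (SD, n = 13) against 0.662 to 1.27 at the other ZT. Both of the controls high in striatal markers are ZT12 libraries. Without them the adjusted p was 0.723, in a fit that called 4.54% of genes. The filtered fit called 7.69% of genes and none of the 5 members in it, for which adjusted p lay between 0.292 (Dusp1) and 0.863 (Junb). In cohort 1 alone, which includes those libraries, Egr1 did not pass in the filtered fit (adjusted p = 0.189, 16.8% of genes called) and passed in the fit without the filter (adjusted p = 0.0301, 8.47% called).

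**Figure D2:**
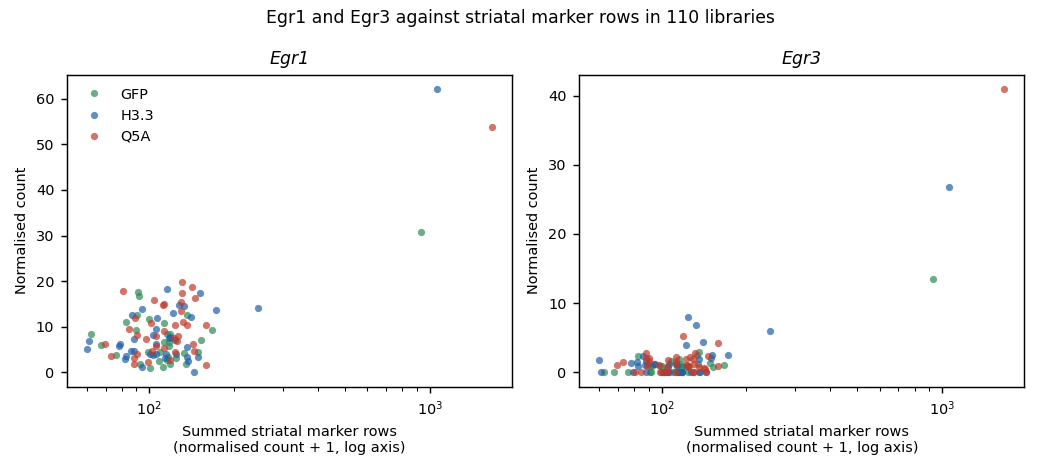
Normalised counts of Egr1 and Egr3 (y axes) against the summed normalised count + 1 of 8 striatal marker rows (x axes, log scale), 1 point per library coloured by virus. The 3 libraries at the right, at 928 to 1667, are the 3 highest for both genes, while the other 107 libraries stay at or below 19.8 for Egr1 and 8.05 for Egr3.

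The other members were raised in some of the 3 libraries and not in others. H3.3 ZT12 replicate 1 was the highest of the 110 for Arc (43.8), Npas4 (11.3) and Nr4a1 (22.6), and GFP ZT12 replicate 3 ranked 107th for Arc (1.23) and had 0 reads of Npas4. Fos was at 2.56, 7.07 and 4.93, ranks 64, 12 and 33 of all libraries, although the 7.07 of the H3.3 library lay far above the rest of its own group of H3.3 at ZT12 (0 to 1.81). Dusp1 was at 34.6, 33.9 and 35.7, ranks 6, 8 and 5. Among the markers, the H3.3 library that was highest for Arc, Npas4 and Nr4a1 was also high in cortical or hippocampal markers (349.1), and the GFP library was not (96.1), while the Q5A library had the highest sum of these (671.2) with Arc at 11.5 and Npas4 at 2.56. The part of striatal, cortical or other tissue in these values was not tested.

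Arc came nearest to a day-night difference in controls. It read 4.09 to 17.4 in the dark hours (median 10.4) and 1.23 to 15.3 in the light hours (median 7.59), a log2 difference of 0.42 ± 0.24 (95% interval -0.05 to 0.88; adjusted p = 0.200). In Q5A the values were 4.28 to 18.8 (median 9.40) and 0.966 to 15.5 (median 6.44), a difference of 0.35 ± 0.32 (adjusted p = 0.737). The ranges overlapped in both arms, and over 14 alternatives the control difference ran from 0.29 to 0.59 with adjusted p of 0.118 to 0.580. Its lowest mean lay at ZT4 in both arms, 7.11 ± 3.99 (SD, n = 11) and 6.76 ± 5.34 (SD, n = 7).

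Npas4, a factor induced selectively by calcium entry, lay between 0 and 3.55 in the dark-hour controls and between 0 and 3.87 in the light-hour controls (log2 difference -0.43 ± 0.55, adjusted p = 0.784). Nr4a1 was at 0 to 8.26 in the dark (median 2.73) and 0 to 5.85 in the light (median 2.57), a difference of 0.15 ± 0.37 (adjusted p = 1.00). In Q5A the differences were -0.53 ± 0.70 for Npas4 and 0.56 ± 0.50 for Nr4a1 (adjusted p = 1.00 and 0.963), and -0.87 ± 0.77 and 0.33 ± 0.51 without the striatal-marker libraries. Nr4a1 had its lowest mean at ZT8 in both arms, 1.94 ± 1.98 (SD, n = 13) in controls and 1.18 ± 1.31 (SD, n = 6) in Q5A, and 5 of the 13 control libraries there had 0 reads.

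**Figure D3:**
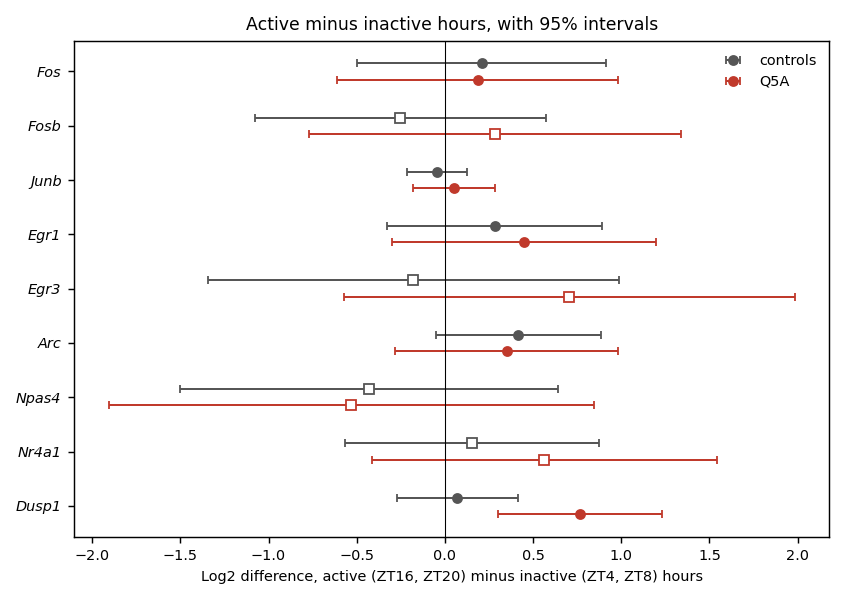
Log2 difference between active (ZT16 and ZT20) and inactive (ZT4 and ZT8) hours (x axis) for each gene, controls in grey and Q5A in red, with 95% intervals. Filled circles passed the filter on low counts, and open squares are from the fit without it. The interval leaves out 0 for Dusp1 in Q5A alone, at 0.30 to 1.23.

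Dusp1 was the member with the clearest difference between hours, and it was seen in Q5A. At ZT4 the 7 Q5A libraries read 18.4, 7.95, 11.6, 11.2, 13.5, 6.01 and 16.3, and at ZT8 the 6 read 20.6, 13.6, 13.3, 10.1, 18.4 and 28.6. At ZT16 the 7 libraries read 34.0, 22.1, 33.5, 25.6, 31.9, 23.8 and 13.2, and at ZT20 the 6 read 14.1, 21.5, 34.6, 38.7, 14.3 and 24.6. All but 1 of the ZT16 values lay above every ZT4 value. The dark and light hours still overlapped, at 13.2 to 38.7 (median 24.6) and 6.01 to 28.6 (median 13.5).

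The log2 difference for Dusp1 in Q5A was 0.76 ± 0.24 (SE; 95% interval 0.30 to 1.23), which did not pass after adjustment over all genes (adjusted p = 0.130). By DESeq2 it was 0.78 ± 0.24 (adjusted p = 0.0843). In cohort 1 alone it was 1.02 ± 0.28 and passed (adjusted p = 0.0142), in a fit that called 740 genes (5.85%) in place of 28. Leaving out the 3 striatal-marker libraries gave 0.72 ± 0.24 (adjusted p = 0.184), and 12 alternatives gave 0.62 to 1.02 with adjusted p of 0.0142 to 0.556. Marker rows moved with the same hours: the summed oligodendrocyte rows had a median of 1983 (988 to 6252) in the dark-hour and 1194 (647 to 2927) in the light-hour Q5A libraries, and the histaminergic rows 135.3 (88.4 to 217.8) and 104.7 (82.7 to 155.4). Both did so in controls too, at 2065 and 1264 for oligodendrocyte rows and 136.9 and 100.2 for histaminergic rows. Their part in the Dusp1 result was not tested.

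In controls Dusp1 ran from 7.48 to 57.4 in the dark hours (median 16.7) and from 6.27 to 33.1 in the light hours (median 18.0), a log2 difference of 0.07 ± 0.17 (95% interval -0.27 to 0.41; adjusted p = 0.802). Its control means were highest at ZT0, 24.2 ± 13.0 (SD, n = 9), and lowest at ZT16, 15.9 ± 6.497 (SD, n = 14), whereas in Q5A ZT16 was the highest, 26.3 ± 7.51 (SD, n = 7), and ZT4 the lowest, 12.1 ± 4.36 (SD, n = 7). The 2 arms were then compared directly. The day-night difference was larger in Q5A by 0.70 ± 0.29 (95% interval 0.12 to 1.27), which did not pass (adjusted p = 0.225), and over 14 alternatives this value ran from 0.40 to 1.03 with adjusted p of 0.106 to 0.665. That comparison called 1 gene of 13254 (0.00754%), not a member, and 0.0194% of genes without the filter. For Fos, Junb, Egr1 and Arc the arms differed by -0.02 ± 0.54, 0.10 ± 0.15, 0.17 ± 0.49 and -0.07 ± 0.40, and without the 3 striatal-marker libraries the Egr1 value was -0.39 ± 0.43.

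**Figure D4:**
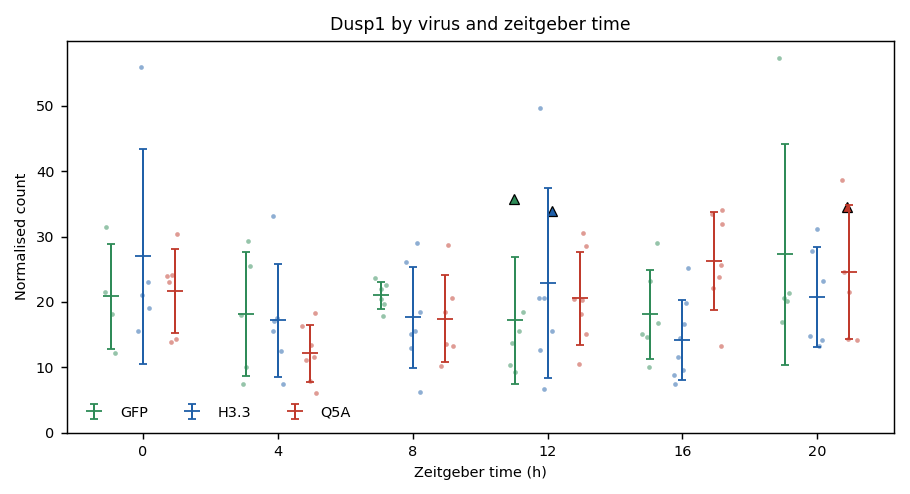
Normalised counts of Dusp1 (y axis) against zeitgeber time in h (x axis) by virus, 1 point per library, with mean and SD and triangles for the 3 libraries high in striatal markers. The Q5A mean goes from 12.1 at ZT4 to 26.3 at ZT16, and the GFP and H3.3 means at ZT16 are 18.1 and 14.2.

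Across the whole day the same row was tested for a rhythm with JTK_CYCLE, a rank test against cosine-like templates of 8 to 24 h. In controls 2340 of 13891 genes passed at its own adjusted p under 0.05 (16.8%) and in Q5A 631 (4.54%). No member passed in controls. In Q5A only Dusp1 did (adjusted p = 0.00844), fitted best by a template of 20 h with a lag of 16 h, and after Benjamini-Hochberg adjustment over all genes its q was 0.647. It no longer passed without replicate 2, 3 or 4 of cohort 1 (0.0603, 0.0603 and 0.0789), and passed in cohort 1 alone (0.00320, q = 0.164), where 8.92% of genes did. Arc passed there too (0.0219, q = 0.382, against 1 in all libraries). Fos passed in the GFP libraries taken alone (0.0287, q = 0.297), where 13.5% of genes did, and not in GFP and H3.3 together (0.627). The 4 rows under the filter were tested in the full table, where 7.05% of genes passed in controls and 2.14% in Q5A, and none of the 4 passed. A rhythm in one arm and not in the other is no test of a difference between the arms, which was not tested with this method.

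The second question was whether Q5A changed the level of the genes over all ZT. No gene of 13254 passed (0%, adjusted p under 0.01, also 0 by DESeq2), with 733 genes at an unadjusted p under 0.05 in edgeR and 742 in DESeq2. Without the filter 0% passed. Among the members Fos had the smallest p: 4.71 ± 2.78 normalised counts in Q5A (SD, n = 39; 0 to 11.5, median 4.88) and 2.95 ± 2.41 in controls (SD, n = 71; 0 to 10.04, median 2.81), a log2 difference of 0.64 ± 0.22 (95% interval 0.20 to 1.08; p = 0.00385, adjusted p = 0.771). The Q5A mean was the higher one at 6 of 6 ZT, with means of 6.75 and 4.30 at ZT16 and 4.11 and 1.79 at ZT20. Against GFP alone it was lower at ZT0 and ZT12, where the GFP means were 5.73 and 4.12, and higher at the other ZT. In 12 alternatives the difference ran from 0.55 to 0.79, and none passed. At about 3 to 5 counts the groups overlapped over their whole range. The mean over ZT of GFP alone was 3.37 ± 2.702 (SD, n = 32) and that of H3.3 2.61 ± 2.11 (SD, n = 39).

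Arc went the other way, lower in Q5A at 6 of 6 ZT, by a log2 difference of -0.16 ± 0.17 (adjusted p = 0.891) that became 0.08 with GFP alone as controls. The remaining rows were close between arms, with -0.05 ± 0.06 for Junb and -0.01 ± 0.12 for Dusp1, and less well placed for Egr1 (0.31 ± 0.21), Egr3 (0.40 ± 0.37, and 0.23 ± 0.35 without the striatal-marker libraries), Npas4 (0.24 ± 0.37), Fosb (0.04 ± 0.30) and Nr4a1 (-0.02 ± 0.25). Between the H3.3 and GFP controls 1 gene of 13891 passed (0.0072%; 0.0694% without the filter), not a member. Arc was at 10.7 ± 7.69 in H3.3 (SD, n = 39) and 7.96 ± 3.49 in GFP (SD, n = 32), a log2 difference of 0.41 ± 0.20 (p = 0.0384, adjusted p = 1.00). This fell to 0.25 ± 0.19 without the 3 striatal-marker libraries, the H3.3 one of which held the highest Arc value.

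Other genes of the response were read from 3 lists. Of 24 further rapid activity genes 10 could be tested, and in controls 1 of them was lower in the dark hours and none higher (median log2 difference -0.10, all genes 0.05). It was Jund, an AP-1 subunit that is expressed without stimulation, which changed by -0.19 ± 0.07 (adjusted p = 0.0454). Of 12 later activity genes 9 could be tested, and 1 rose, Pcsk1, a protease that matures neuropeptides, by 0.82 ± 0.25 (adjusted p = 0.0184; list median 0.28). In Q5A the Pcsk1 difference was -0.66 ± 0.33 (adjusted p = 0.420), and the arms differed by -1.48 ± 0.42 (adjusted p = 0.188). Of 14 upstream kinases and transcription factors 13 could be tested, and 2 rose, Mef2a by 0.71 ± 0.19 (adjusted p = 0.01003) and Elk1 by 0.62 ± 0.19 (adjusted p = 0.0182), both transcription factors that act at immediate early promoters (list median 0.15). Mef2a overlaps Lysmd4 on the other strand, whose row held a median of 341.5 reads. Jund overlaps Gm11175 on the other strand, which had no row in the counts. These counts, 1 of 10, 1 of 9 and 2 of 13, stand beside 14.1% of all genes and show nothing particular to the lists. By the overall ZT test in controls (7.69% of all genes) 3 genes passed, Mef2a, Elk1 and Srf, all of the upstream list. For a rhythm in controls (16.8% of all genes) Fosl2, Jun and Jund passed of 13 rapid genes, none of 10 later genes, and Elk1 of 14 upstream genes. In Q5A no gene of the 3 lists passed between active and inactive hours or in level over all ZT, and 1 passed for a rhythm, Mef2c (adjusted p = 0.0281, q = 0.913; 4.54% of all genes). The genes named from the ZT and rhythm tests were chosen after their values were seen.

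The 9 genes did not vary as a block between libraries. Among their 36 pairs, over the 110 libraries, Spearman's rho had a median of 0.07 and ran from -0.24 (Fos and Junb) to 0.41 (Fos and Egr1), and only Fos with Egr1 and Fos with Nr4a1 (0.30) exceeded 0.3. Without the 3 striatal-marker libraries the Fos and Egr1 value was 0.41 and that of Fos and Nr4a1 0.29. Junb was opposed to Fos and to Egr1 (-0.22). All points share the depth of their library, and at a few reads per row weak values carry little. Among 9157 other genes with a mean normalised count of at least 10, the 5 whose pattern was most like the mean z score of the 5 filtered members were RP23-142A14.6 (rho 0.48), Riox2 (0.46), RP23-322K15.2 (0.45), Mroh1 (0.45) and RP23-70L9.3 (0.45). The clone-based names were not matched to the annotation used here, and Riox2 and Mroh1 overlap Crybg3 and Bop1 on the other strand.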

How the data were processed

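The deposited tables are raw counts per gene name. The authors aligned the reads of a stranded ligation kit to GRCm38 with STAR 2.7.11b and counted exonic reads with htseq-count (HTSeq 2.0.5, union mode, minimum quality 10, stranded set to yes). Of 111 libraries, 2 agreed within sampling noise (Q5A ZT4, cohort 2, replicates 2 and 3) and were averaged, which left 110. A further 18 tables matched no sample label and were not used. Normalised counts are median-of-ratios counts over 9428 genes. Groups were compared with edgeR 4.0.16 (TMM, filterByExpr with a minimum count of 10, quasi-likelihood test, Benjamini-Hochberg adjustment, prior count 0.125) in R 4.3.3, with 1 mean per arm or virus and ZT. Intervals at 95% are Wald intervals. Cohorts 1 and 2 held 28 and 4 GFP libraries, and GFP had no library in cohort 3. Over cohorts 1, 2 and 3, H3.3 had 24, 10 and 5 libraries and Q5A 26, 10 and 3. The main fits held no term for cohort, so virus and cohort cannot be fully told apart in them. The threshold was 0.05 for hours and 0.01 for viruses. DESeq2 1.42.0, median-of-ratios factors, no filter, cohort as a covariate, cohort 1 alone, the replicate block, single replicates and single control viruses served as alternatives. JTK_CYCLE was rewritten in Python. On simulated data with 200 of 13254 genes changed by 1 on the log2 scale between the control hours, edgeR recovered 89.5%. With 200 of 13891 genes given a rhythm of amplitude 0.5 in controls, JTK_CYCLE recovered 80.5% and called 1.99% of the rest. The changed genes were drawn at random from those past the filter, and the median gene of the 13254 held 17 reads per library. Recovery at the lower counts of Fos, Egr1 and Arc, or of rows under the filter, was not measured.

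Overlaps come from GENCODE vM21 (GRCm38). All 9 genes are named; of each list the genes past the threshold in the control hours are named, at most 4, and the 5 most alike genes are those of highest Spearman correlation. The members and lists were chosen with earlier results of these data known. Per the study's methods, tissue was not pooled across mice, so a library is 1 mouse. Counting errors cover counting alone. Same-numbered cohort 1 libraries of different groups did not deviate together (median correlation -0.000813 over 616 pairs), so the numbers were not taken as pairs.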

Additional observations from a re-analysis of the deposited data

Results flagged for a closer look

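Each gene was examined within every group (18 combinations of a virus with a ZT) for a library far from the rest of its group by Dixon's criterion. Of these 162 sets 31 held one (19.1%). The criterion gives about 1 in 20 by chance for normally distributed values. Rows of very few reads are not distributed so, and the share that chance gives here is not known. The striatal-marker libraries account for 14 of them. They are Egr1 at 30.8 in GFP ZT12 replicate 3, 62.2 in H3.3 ZT12 replicate 1 and 53.8 in Q5A ZT20 replicate 3, Egr3 at 13.6, 26.9 and 41.0, and Nr4a1 at 9.86, 22.6 and 7.69 in the same order. In H3.3 ZT12 replicate 1 they are also Fos at 7.07, Arc at 43.8 and Npas4 at 11.3, in GFP ZT12 replicate 3 Dusp1 at 35.7, and in Q5A ZT20 replicate 3 Npas4 at 2.56.

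A further library, GFP ZT20 replicate 1, was high for Junb (709, others at most 401) and for Dusp1 (57.4, others at most 21.4). Dusp1 also stood out at 56.0 in H3.3 ZT0 replicate 1 of cohort 2, Junb at 338, below its group, in H3.3 ZT0 replicate 2, Arc at 28.8 in H3.3 ZT0 replicate 3 and, below its group, at 2.81 in GFP ZT8 replicate 3. Among rows near the counting limit were Fos at 1.92 in GFP ZT20 replicate 4 and 6.15 in H3.3 ZT4 replicate 2, and Fosb at 0 in Q5A ZT0 replicate 4. Egr3 was at 1.21 in GFP ZT16 replicate 5, 2.52 in GFP ZT4 replicate 5, 5.91 in H3.3 ZT16 replicate 4 and 6.77 in H3.3 ZT8 replicate 3. Npas4 was at 4.30 in GFP ZT12 replicate 1 of cohort 2, 1.45 in H3.3 ZT0 replicate 4, 3.16 in H3.3 ZT20 replicate 2 and 3.46 in H3.3 ZT4 replicate 1 of cohort 2. In several of these groups every other library had 0 reads.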

How the results depend on the processing

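Alternatives with the 3 striatal-marker libraries left out were chosen after seeing the data, as were those on summed levels. Counts of genes past the threshold depended on the libraries used, and the cause was not tested. Active against inactive hours gave 1870 genes in controls, 63 with GFP alone, 128 with H3.3 alone, 1192 with no filter and 338 to 2111 without single replicates. In Q5A it gave 28, and 65 by DESeq2, 740 in cohort 1, 67 with cohort as a covariate, 56 with the replicate block and 2 to 6 without single replicates. The difference between arms gave 1, and 0 with GFP or H3.3 alone, 62 in cohort 1, 7 with no filter, 0 without the 3 libraries and 0 without any single replicate. The ZT effect gave 1019, and 175 with H3.3 alone, 2125 in cohort 1 and 200 to 937 without single replicates. Q5A against controls gave 0, and 2 with GFP alone, 25 in cohort 1, 10 with cohort as a covariate and 9 with the replicate block. H3.3 against GFP gave 1, and 18 in cohort 1, 13 with the covariate, 25 with no filter, 11 with the block, 0 without the 3 libraries and 0 without single replicates. Rhythms in controls were 2340, and 1063 with H3.3 alone, 420 by Benjamini-Hochberg q and 1465 to 2423 without single replicates. In Q5A they were 631, and 1239 in cohort 1, 1 by q and 388 to 554 without single replicates. Same-numbered libraries share only a number, and the replicate block changed the call of no member.

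Of 547 values of members under alternatives 504 kept direction and side of the threshold. Log2 differences that changed sign, none of them past a threshold, were in the control hours Fos with GFP alone (-0.75), Nr4a1 in cohort 1 (-0.14) and Dusp1 with H3.3 alone (-0.023) or without replicates (-0.15 to 0.22). In the Q5A hours they were Fosb (-9.1e-05), Egr1 (-0.10) and Egr3 (-0.35) without the 3 libraries, and Egr1 without replicates (-0.12 to 0.57). Between arms they were Fos (0.95), Egr1 (-0.039) and Arc (0.024) with GFP alone, Arc in cohort 1 (0.33), and Fos (0.036), Egr1 (-0.39) and Egr3 (-0.17) without the 3 libraries, and without replicates Fos (-0.19 to 0.082), Egr1 (-0.45 to 0.46) and Arc (-0.30 to 0.017). For Q5A against controls they were Arc with GFP alone (0.078), Fosb (-0.057), Nr4a1 (0.012) and Dusp1 (0.0056) without the 3 libraries, Dusp1 with H3.3 alone (0.020), in cohort 1 (0.0024), with no filter (0.0035) and with the replicate block (0.018), and without replicates Junb (-0.085 to 0.0038) and Dusp1 (-0.056 to 0.047). For H3.3 against GFP they were Npas4 without the 3 libraries (-0.24), and without replicates Fos (-0.48 to 0.17), Egr1 (-0.038 to 0.44) and Dusp1 (-0.11 to 0.032). Depth limits the rows of Fos, Fosb, Egr3, Npas4 and Nr4a1 most, where 3 reads are worth a normalised count of 1.08 to 7.15.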
